A study of Mus musculus with 17 samples.

Results

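The genes described here are the CDK inhibitors Cdkn1a, Cdkn1b, Cdkn2a, Cdkn2b and Cdkn2c, the D cyclins Ccnd1, Ccnd2 and Ccnd3, and Trp53 with its feedback partner Mdm2. They were chosen by name for their role in the G1 control of the cell cycle, though with earlier results of these data known. All 10 were found among the 35896 gene IDs of the deposited tables, and all 10 passed the filter on low counts that left 13923 genes for testing. RNA sequencing was done on 17 libraries of murine pancreatic stellate cells, mesenchymal cells that can give rise to pancreatic fibroblasts. The cells were of genotype WT and strain C57BL/6J, belonged to the lines PSC4 and PSC5, and were grown in Matrigel, a basement membrane gel. They were kept for 4 days in control medium (5 libraries), in TGF-beta at 20 ng/mL (4 libraries), in pancreatic tumour organoid conditioned medium, called CM here (4 libraries), or in CM plus 300 nM of the ERBB kinase inhibitor neratinib (4 libraries). The PSC4 libraries carry the replicate numbers 1, 2 and 3 at passages 23, 24 and 25, and the PSC5 libraries carry 1 and 2 at passages 27 and 28. The labels do not say whether same-numbered libraries came from separate cultures beyond this, so p-values measure the spread between these libraries. The TGF-beta group had no PSC4 replicate 1, and the 2 groups with CM had no PSC4 replicate 3. In the labels the CM carries a code, T8 for replicate 1 and T6 for replicate 2 of both lines. As a model, the groups stand for 2 cultured lines only, and no library came from tissue.

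Progression through G1 depends on the D cyclins, which activate the kinases CDK4 and CDK6 to phosphorylate the retinoblastoma protein and free E2F transcription factors. INK4 proteins (p16Ink4a from Cdkn2a, p15Ink4b from Cdkn2b, p18Ink4c from Cdkn2c) bind CDK4 and CDK6, whereas p21 (Cdkn1a) and p27 (Cdkn1b) act on a wider range of CDK complexes. The transcription factor p53 (Trp53) activates Cdkn1a and Mdm2, the MDM2 ubiquitin ligase degrades p53, and p19Arf, a second product of Cdkn2a, inhibits MDM2. Cdkn2b is a known target of TGF-beta signalling in epithelial cells, and Ccnd1 is a known target of growth factor signalling through ERK.

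Promoter sequences are shown for Cdkn1a and Mdm2, and for Cdkn2b and Cdkn2a, because these gene pairs had the highest correlations over the 17 libraries. Each window runs from 250 to 51 bases before a start site in the RefSeq table for GRCm38.p6, is 200 bases long and is printed 5′ to 3′ on the strand of the gene. Of the 10 genes, 8 had an entry, and Ccnd1 and Ccnd2 are named only. None of the windows printed overlaps an exon annotated in GENCODE, and the other Cdkn1a window, which does, is not printed. In the first pair, at chr17:29090729-29090928 (plus strand) and chr10:117710809-117711008 (minus strand), capitals mark matches to the p53 half-site, the decamer of which p53 binds a pair.
Cdkn1a: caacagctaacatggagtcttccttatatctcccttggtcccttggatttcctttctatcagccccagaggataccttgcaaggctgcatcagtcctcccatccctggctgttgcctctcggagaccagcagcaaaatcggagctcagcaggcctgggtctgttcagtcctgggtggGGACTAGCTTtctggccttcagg
Mdm2: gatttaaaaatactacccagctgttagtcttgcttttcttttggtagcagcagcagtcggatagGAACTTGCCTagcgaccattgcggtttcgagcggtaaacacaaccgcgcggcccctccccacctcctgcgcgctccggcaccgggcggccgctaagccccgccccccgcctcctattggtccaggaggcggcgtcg
The Cdkn1a and Mdm2 windows each held 1 such match. At least 1 lay in 5.82% of the 32851 windows of the same length in the table. The Trp53 window, which is not printed, also held 1, and the Cdkn1a window not printed held none. In the next 3 windows, all on the minus strand of chromosome 4, capitals mark the SMAD box CAGAC on either strand (CAGAC or GTCTG), the short motif bound by the SMAD proteins that carry TGF-beta signals. They lie at chr4:89311083-89311282 (Cdkn2b), at chr4:89294670-89294869 (the upstream start of Cdkn2a, from which p19Arf is transcribed) and at chr4:89282243-89282442 (its downstream start, from which p16Ink4a is transcribed).
Cdkn2b: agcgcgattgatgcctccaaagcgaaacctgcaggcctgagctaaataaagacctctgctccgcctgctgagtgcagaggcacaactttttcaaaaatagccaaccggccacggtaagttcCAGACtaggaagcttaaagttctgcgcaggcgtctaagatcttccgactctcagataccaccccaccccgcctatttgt
Cdkn2a upstream start: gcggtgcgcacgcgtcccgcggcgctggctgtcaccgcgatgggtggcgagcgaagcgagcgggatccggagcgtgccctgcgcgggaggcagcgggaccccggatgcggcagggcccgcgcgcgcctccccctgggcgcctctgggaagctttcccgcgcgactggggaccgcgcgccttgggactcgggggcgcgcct
Cdkn2a downstream start: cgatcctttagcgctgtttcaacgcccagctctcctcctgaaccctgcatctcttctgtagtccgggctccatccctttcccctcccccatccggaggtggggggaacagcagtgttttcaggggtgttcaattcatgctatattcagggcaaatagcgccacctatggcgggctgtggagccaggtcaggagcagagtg
Cdkn2b had 1 SMAD box and neither Cdkn2a window had one, against 35.83% of all windows, and none of these 3 windows held a p53 half-site. SMAD boxes also lay in the Cdkn1a window printed above (1) and, among windows not printed, in the other Cdkn1a window (1), a Cdkn2c window (1) and a Ccnd3 window (2). The GC content was 52% in the Cdkn2b window, 79% at the upstream and 57.5% at the downstream start of Cdkn2a. A match is a run of letters and was not tested for binding.

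Library totals lay between 22168953 and 29421447 counts, and the lowest count of any of the 10 genes in any library was 529 (Cdkn2b). All 10 mesenchymal markers on the list, Col1a1, Pdgfra and Des among them, were detected in every library. Epithelial markers (12 genes, such as Krt8 and Epcam) summed to between 146 and 323 CPM in the 4 libraries whose medium carried the code T6. In the other 13 libraries the sum was 11.4 to 51.9 CPM. Among the immune markers, Adgre1 and Cd3e were at 0 in all 17 libraries, Ptprc had at most 1 count, and Cd68 (34 to 289 counts) and Csf1r (9 to 30) were present in all. The immune sum was 12.3 CPM in CM+neratinib PSC4 replicate 1 and 1.91 to 3.60 CPM elsewhere. Its part in the results was not tested, and values without the PSC4 replicate 1 libraries are given beside several results. Of 5 acinar markers, Prss1 and Ptf1a were at 0, Cpa1 and Amy2a5 had at most 1 count, and Cela1 had 132 to 359. The 4 endothelial markers summed to 1.34 to 5.03 CPM. The 3 libraries labelled PSC4 replicate 1 stood apart from the other PSC4 libraries. After removal of group means their median correlation across genes was -0.44, -0.31 and -0.24 with the other PSC4 libraries and 0.24, 0.19 and 0.16 with the PSC5 libraries (in control, CM and CM with neratinib). The values of these 3 libraries are therefore given by name, and several results are also given without them. In these bulk samples, fewer cells of a type and less RNA per cell cannot be told apart.

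Levels are in CPM, counts scaled to a common library size with edgeR's TMM factors. Per kilobase of exon in control medium, Cdkn2a was the most abundant of the 10 at 340 CPM per kb, over 1.172 kb of exon. Cdkn1a followed at 55.4, Trp53 at 47.7, Cdkn2c at 38.0, Cdkn2b at 35.1, Ccnd1 at 33.5, Ccnd2 at 31.2, Mdm2 at 30.7, Cdkn1b at 28.03 and Ccnd3 at 15.2 CPM per kb. Neighbours in this order were not tested against each other. The coefficient of variation among control libraries ran from 6.35% (Cdkn2b) to 53% (Ccnd1). Over all 17 libraries Ccnd1 varied most (5.56-fold from lowest to highest) and Ccnd3 least (1.59-fold).

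**Figure D1:**
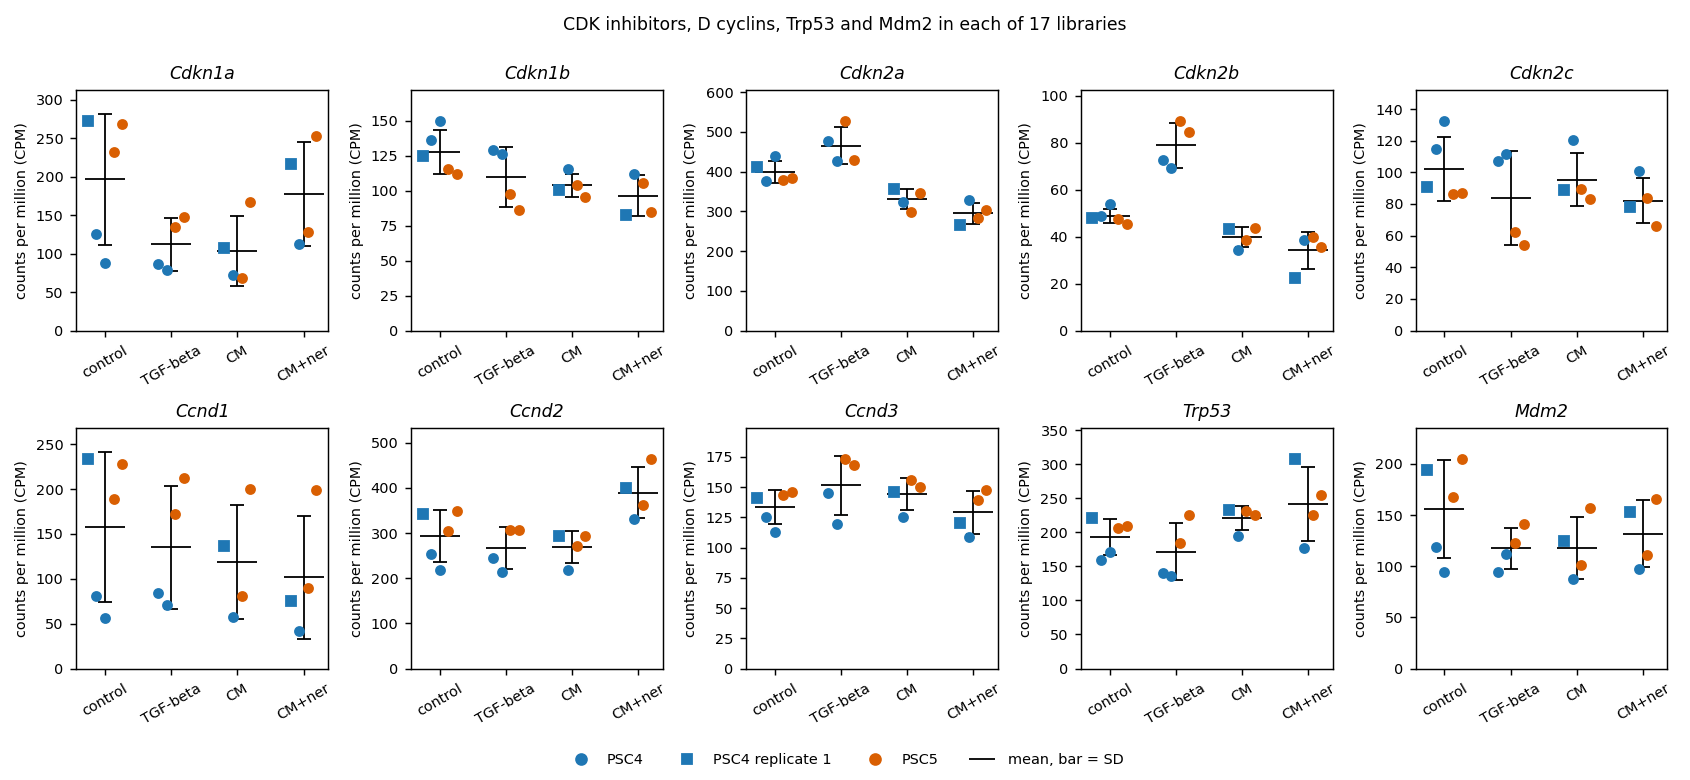
Level of each gene in CPM (vertical axes starting at 0) in 17 libraries by medium, with PSC4 in blue (replicate 1 as squares), PSC5 in orange, and the group mean with SD in black. Cdkn2b separates TGF-beta (69.1 to 89.0 CPM) from control (45.4 to 53.8 CPM), Ccnd2 is highest in CM with neratinib, and Cdkn1a and Ccnd1 spread widely within each group.

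Differences between media were read from one edgeR quasi-likelihood fit over all 17 libraries with medium and cell line as terms, and a gene is called where its Benjamini-Hochberg adjusted p over all genes was under 0.05. Libraries of the same line and number were found to vary together, so where it changes a call the value is also given from a fit with a replicate block, in which libraries of 1 line and 1 number are compared with each other. Against control, TGF-beta called 2 of the 10 genes (Cdkn2b and Cdkn2a, both higher), where 40.2% of all genes were called (19.7% higher and 20.5% lower). CM called 1 gene (Cdkn2a, lower), where 14.2% of all genes were called (7.05% higher and 7.14% lower). CM with neratinib called 4 (Ccnd2 higher, and Cdkn1b, Cdkn2a and Cdkn2b lower), where 43.1% were called (22.2% higher and 20.9% lower). Against CM, neratinib called Ccnd2 alone (higher), beside 20.5% of all genes (10.8% higher and 9.63% lower). Against TGF-beta, CM called 2 (Cdkn2a and Cdkn2b, lower), beside 35.3% of all genes (17.8% higher and 17.5% lower), and CM with neratinib called 5 (Ccnd2 and Trp53 higher, and Cdkn2a, Cdkn2b and Ccnd3 lower), beside 44% (23.1% higher and 20.9% lower). In 5 of these 6 comparisons the share of the 10 genes lay below that of all genes in this fit. In the last it was within 1 gene of it, so the counts of this fit say nothing particular to the 10.

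The replicate block moved most of these counts. It called 6 genes with TGF-beta against control (50.9% of all genes), 5 with CM against control (23.3%), 7 with CM and neratinib against control (52.4%), 3 with neratinib against CM (32.8%), 6 with CM against TGF-beta (43.4%) and 6 with CM and neratinib against TGF-beta (50.4%). All 5 genes called with CM against control were lower (Cdkn1a, Cdkn1b, Ccnd1, Ccnd2 and Mdm2). The 3 comparisons with control share the control libraries, and those with TGF-beta share the TGF-beta libraries.

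**Figure D2:**
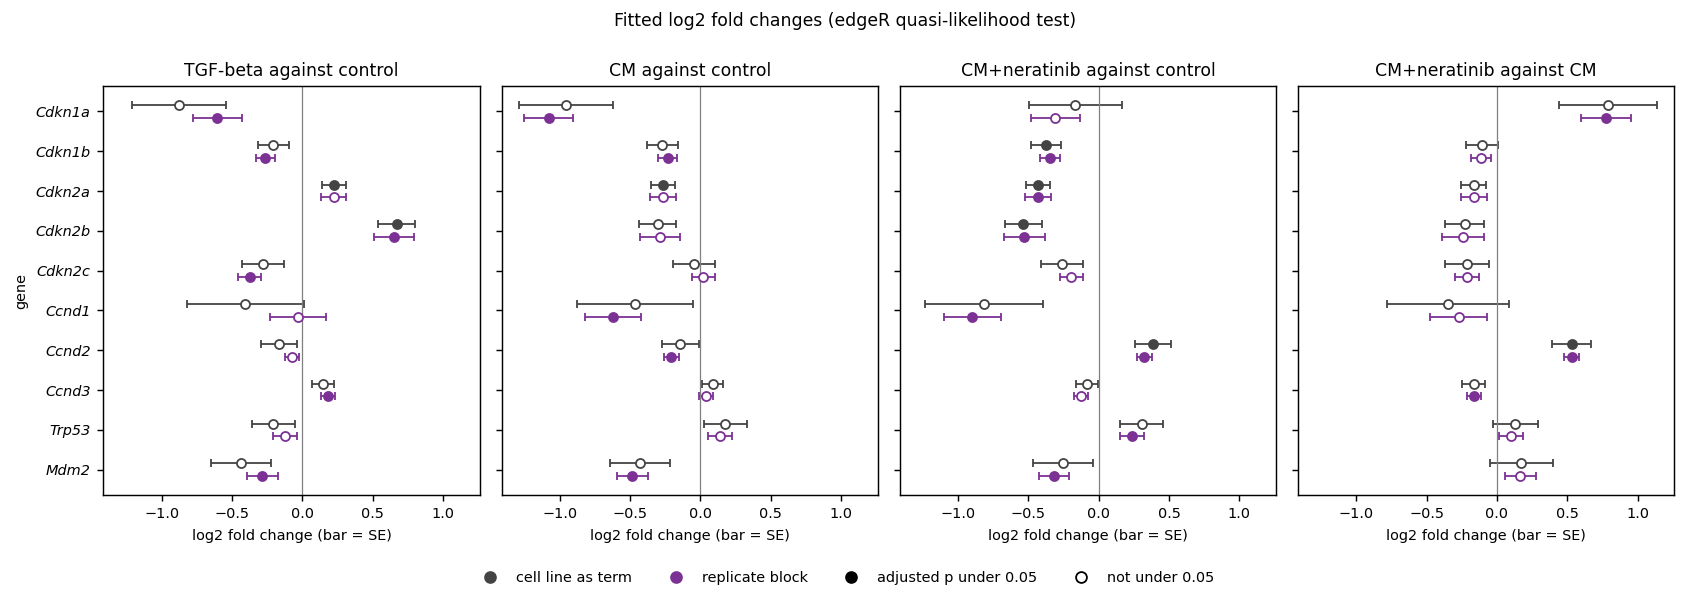
Fitted log2 fold change with its standard error (horizontal axes) of the 10 genes in 4 comparisons, from the fit with cell line as a term (grey) and with the replicate block (purple), filled where the adjusted p was under 0.05. Cdkn2b with TGF-beta (0.67) and Ccnd2 with neratinib against CM (0.53) are filled in both fits, whereas Cdkn1a is filled only with the block in 3 panels.

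Cdkn2b (chr4:89306299-89311039, minus strand, GRCm38), the gene of the INK4 inhibitor p15, rose with TGF-beta and fell with CM and neratinib. Its level in TGF-beta was 72.8 and 69.1 CPM in PSC4 and 89.0 and 84.4 CPM in PSC5. In control it was 48.0, 48.8 and 53.8 CPM in PSC4 replicates 1 to 3 and 47.7 and 45.4 CPM in PSC5. All 4 TGF-beta libraries lay above all 5 controls. The fitted log2 fold change was 0.67 (SE 0.13, adjusted p = 0.000892, edgeR), a 1.59-fold rise, and it was called under all 18 alternatives run.

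In CM the level of Cdkn2b was 43.2 and 34.3 CPM in PSC4 and 38.6 and 43.5 CPM in PSC5, so every CM library lay below every control. That difference was not called (log2 fold change -0.31, SE 0.13, adjusted p = 0.140). Without the PSC4 replicate 1 libraries the value for Cdkn2b was -0.36, with an adjusted p of 0.0284. With neratinib added, Cdkn2b stood at 22.5 and 38.6 CPM in PSC4 and at 39.9 and 35.6 CPM in PSC5. These 4 libraries also lay below all controls, and the lowest of them was PSC4 replicate 1. Cdkn2b fell by 0.54 on the log2 scale against control (SE 0.13, adjusted p = 0.00533), and without the PSC4 replicate 1 libraries the value was -0.38 (adjusted p = 0.00954). Neratinib against CM gave -0.23 (SE 0.14, adjusted p = 0.261), with 2 matched libraries higher and 2 lower. The highest and lowest media were therefore TGF-beta and CM with neratinib (log2 fold change -1.21 for the latter, adjusted p = 1e-05), whereas CM and CM with neratinib, neighbours in the order, did not differ beyond their spread.

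Cdkn2a (chr4:89274471-89294653, minus strand), next to Cdkn2b in the same locus, followed the same order of media with smaller differences. Counts per gene sum the transcripts of p16Ink4a and p19Arf, which could not be separated here. Its level was 413, 377 and 440 CPM in PSC4 controls 1 to 3 and 379 and 384 CPM in PSC5 controls. In TGF-beta it was 478 and 427 CPM in PSC4 and 526 and 429 CPM in PSC5, above the control mean in all 4 but overlapping the highest control. The log2 fold change was 0.23 (SE 0.08, adjusted p = 0.0433), and with the replicate block 0.22 (adjusted p = 0.0568), so this call was lost with the block. The call on Cdkn2a was also lost without any 1 of 6 libraries, namely control PSC4 replicate 1 or 2, control PSC5 replicate 1 or 2, TGF-beta PSC4 replicate 2 or TGF-beta PSC5 replicate 1. The last of these gave the smallest value, 0.15 (adjusted p = 0.152). Upper-quartile factors (0.18, adjusted p = 0.129) and no filter on low counts (0.23, adjusted p = 0.0695) lost the call too.

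In CM, Cdkn2a stood at 356 and 325 CPM in PSC4 and at 297 and 345 CPM in PSC5, below every control. The value of -0.27 (SE 0.08, adjusted p = 0.0483) was close to the threshold. It missed it with the replicate block (-0.27, adjusted p = 0.0560) and without any single library of the comparison (adjusted p 0.0581 to 0.166). With neratinib the level of Cdkn2a was 266 and 328 CPM in PSC4 and 283 and 303 CPM in PSC5, again below every control. Cdkn2a fell by 0.43 here (SE 0.08, adjusted p = 0.00112), and by 0.37 without the PSC4 replicate 1 libraries (adjusted p = 0.00747). Both conditioned media also lay below all TGF-beta libraries, with log2 fold changes of -0.49 (adjusted p = 0.000554) for CM and -0.66 (adjusted p = 3.92e-05) with neratinib. Neratinib against CM gave -0.16 for Cdkn2a (SE 0.09, adjusted p = 0.204).

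Cdkn1a (chr17:29090976-29100727, plus strand), the gene of p21, had wide spread within each medium and was lower in CM than in the matched control library in every pair. In control its level was 272, 125 and 87.2 CPM in PSC4 replicates 1 to 3 and 232 and 268 CPM in PSC5. In CM it was 107 and 72.1 CPM in PSC4 and 68.3 and 167 CPM in PSC5. The CM and control ranges overlapped, since the PSC5 library in T6 medium exceeded the 2 lower PSC4 controls. The log2 fold change was -0.96 (SE 0.34, adjusted p = 0.0709), and with the replicate block -1.08 (adjusted p = 0.00148), with log2 ratios of -1.76 to -0.68 in the 4 matched pairs. Without the PSC4 replicate 1 libraries the value for Cdkn1a was -0.86 (adjusted p = 0.0546).

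With neratinib in the CM, Cdkn1a was at 216 and 113 CPM in PSC4 and at 128 and 253 CPM in PSC5. Each of these libraries was higher than its matched CM library, by 0.60 to 1.01 log2 units, while the ranges overlapped. The log2 fold change against CM was 0.79 (SE 0.35, adjusted p = 0.123), and with the replicate block 0.77 (adjusted p = 0.00696). Without the PSC4 replicate 1 libraries it was 0.68 (adjusted p = 0.151). Against control the value with neratinib was -0.17 (SE 0.33, adjusted p = 0.709). TGF-beta libraries held 86.2 and 79.1 CPM of Cdkn1a in PSC4 and 135 and 148 CPM in PSC5, each below its matched control. That difference was -0.88 (SE 0.34, adjusted p = 0.0502), and -0.61 with the block (adjusted p = 0.0117). It was -0.60 without the PSC4 replicate 1 libraries (adjusted p = 0.0730).

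Cdkn1b (chr6:134920401-134925513, plus strand), the gene of p27, was highest in control and lowest in CM with neratinib. Control libraries held 125, 136 and 149 CPM in PSC4 and 116 and 112 CPM in PSC5, and CM with neratinib held 82.5 and 112 CPM in PSC4 and 105 and 85.0 CPM in PSC5. The groups met at 112 CPM and all 4 neratinib libraries lay below the control mean. Cdkn1b fell by 0.37 (SE 0.11, adjusted p = 0.0122), and with the T6 libraries removed the value was -0.40 (adjusted p = 0.0715). CM alone gave -0.27 (SE 0.11, adjusted p = 0.110), and -0.23 with the block (adjusted p = 0.0296). TGF-beta gave -0.21 (SE 0.11, adjusted p = 0.144), and -0.26 with the block (adjusted p = 0.00663). Without the PSC4 replicate 1 libraries that value was -0.24 (adjusted p = 0.0230). The order control, TGF-beta, CM, CM with neratinib thus had no called step between neighbours in the fit with cell line as labelled, over all 17 libraries.

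Cdkn2c (chr4:109660876-109667189, minus strand), the gene of p18, was called between no media in the fit with cell line as labelled, over all 17 libraries. In TGF-beta it stood at 107 and 112 CPM in PSC4 and at 62.3 and 54.1 CPM in PSC5, and in control at 90.6, 115 and 132 CPM in PSC4 and 86.3 and 87.1 CPM in PSC5. All 4 matched pairs were lower in TGF-beta. The value was -0.28 (SE 0.15, adjusted p = 0.150), and -0.37 with the block (adjusted p = 0.00250). Without the PSC4 replicate 1 libraries it was -0.36 (adjusted p = 0.0115), and with them counted with PSC5 it was -0.38 (adjusted p = 0.00349). CM against control gave -0.05 (adjusted p = 0.864) and CM with neratinib -0.26 (adjusted p = 0.171). CM against TGF-beta gave 0.23 (adjusted p = 0.273), and 0.39 with the block (adjusted p = 0.00383).

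Ccnd2 (chr6:127125162-127152193, minus strand), the gene of cyclin D2, was the D cyclin with the clearest difference between media and was highest with neratinib. In CM with neratinib its level was 401 and 331 CPM in PSC4 and 363 and 463 CPM in PSC5. In CM alone it was 294 and 219 CPM in PSC4 and 271 and 293 CPM in PSC5. All 4 neratinib libraries exceeded all 4 CM libraries, and each matched pair rose by 0.42 to 0.66 log2 units. Ccnd2 rose by 0.53 (SE 0.14, adjusted p = 0.0144), a 1.44-fold difference, and by 0.57 without the PSC4 replicate 1 libraries (adjusted p = 0.00364). Without the library CM+neratinib PSC5 replicate 2 the value for Ccnd2 was 0.48 (adjusted p = 0.0502). With the T6 libraries removed, which had the higher epithelial marker sums given above, it was 0.44 (adjusted p = 0.273), and with the T8 libraries removed it was 0.63 (adjusted p = 0.0426). The call on Ccnd2 was also lost with 2 groups in the fit.

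Control libraries held 343, 253 and 219 CPM of Ccnd2 in PSC4 and 304 and 349 CPM in PSC5, so 2 of them exceeded the lowest neratinib library. Ccnd2 rose by 0.39 against control (SE 0.13, adjusted p = 0.0253), with all 4 matched pairs higher. This call was lost without control PSC4 replicate 2 or 3, control PSC5 replicate 1, CM+neratinib PSC4 replicate 1 or CM+neratinib PSC5 replicate 2, with values for Ccnd2 of 0.32 to 0.36. It was also lost with upper-quartile factors (0.33, adjusted p = 0.0535), with 2 groups in the fit (0.39, adjusted p = 0.0626), with the T6 libraries removed (0.38, adjusted p = 0.116) and with the T8 libraries removed (0.39, adjusted p = 0.0519). CM against control was -0.14 (adjusted p = 0.502), and -0.21 with the block (adjusted p = 0.0148), with all 4 matched pairs lower. TGF-beta, at 213 to 306 CPM, gave -0.16 (adjusted p = 0.342). In the order CM with neratinib, control, CM, TGF-beta, the last 3 did not differ beyond their spread in that fit.

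Ccnd1 (chr7:144929931-144939925, minus strand), the gene of cyclin D1, differed between libraries of 1 medium by more than between media. In control it was 233, 80.4 and 56.6 CPM in PSC4 replicates 1 to 3 and 189 and 229 CPM in PSC5. In CM with neratinib it was 75.2 and 41.9 CPM in PSC4 and 89.6 and 199 CPM in PSC5. The groups overlapped over most of their range. PSC4 replicate 1 was the highest library in control and lay between PSC4 replicate 2 and the PSC5 libraries with neratinib. The log2 fold change was -0.82 (SE 0.42, adjusted p = 0.131), and -0.90 with the block (adjusted p = 0.00295), with log2 ratios of -1.63 to -0.20 in the 4 matched pairs. Without the PSC4 replicate 1 libraries the value for Ccnd1 was -0.56 (adjusted p = 0.161). CM gave -0.47 (SE 0.41, adjusted p = 0.495), and -0.62 with the block (adjusted p = 0.0402). Its libraries held 137 and 57.2 CPM in PSC4 and 81.2 and 199.9 CPM in PSC5. TGF-beta gave -0.40 (SE 0.42, adjusted p = 0.475) and neratinib against CM -0.35 (SE 0.44, adjusted p = 0.616). Against TGF-beta, Ccnd1 was at -0.06 in CM (adjusted p = 0.930), and -0.59 with the block (adjusted p = 0.0447). CM with neratinib gave -0.41 against TGF-beta (adjusted p = 0.469), and -0.87 with the block (adjusted p = 0.00558).

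Ccnd3 (chr17:47505051-47599691, plus strand), the gene of cyclin D3, kept the narrowest range of the 10 genes. It was 145 and 119 CPM in PSC4 and 173 and 168 CPM in PSC5 in TGF-beta, against 121 and 109 CPM in PSC4 and 140 and 148 CPM in PSC5 in CM with neratinib. Only 3 matched pairs exist here, PSC4 replicate 2 (145 and 109 CPM) and both of PSC5. Each was lower with neratinib, though the groups overlapped. Ccnd3 fell by 0.23 between these media (SE 0.08, adjusted p = 0.0337), a call that was lost with the T6 libraries removed (-0.21, adjusted p = 0.152) and with the T8 libraries removed (-0.25, adjusted p = 0.0747). It was also lost for Ccnd3 without TGF-beta PSC4 replicate 2, either TGF-beta PSC5 library, CM+neratinib PSC4 replicate 2 or CM+neratinib PSC5 replicate 1, with values of -0.22 to -0.19. The fit with 2 groups lost it too, and 9 of 19 alternatives did in all. TGF-beta against control gave 0.15 (SE 0.08, adjusted p = 0.146), and 0.19 with the block (adjusted p = 0.00767). Without the PSC4 replicate 1 libraries that value was 0.20 (adjusted p = 0.0193). Neratinib against CM gave -0.17 (adjusted p = 0.162), and -0.16 with the block (adjusted p = 0.0283). CM against TGF-beta gave -0.06 for Ccnd3 (adjusted p = 0.597), and -0.14 with the block (adjusted p = 0.0467).

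**Figure D3:**
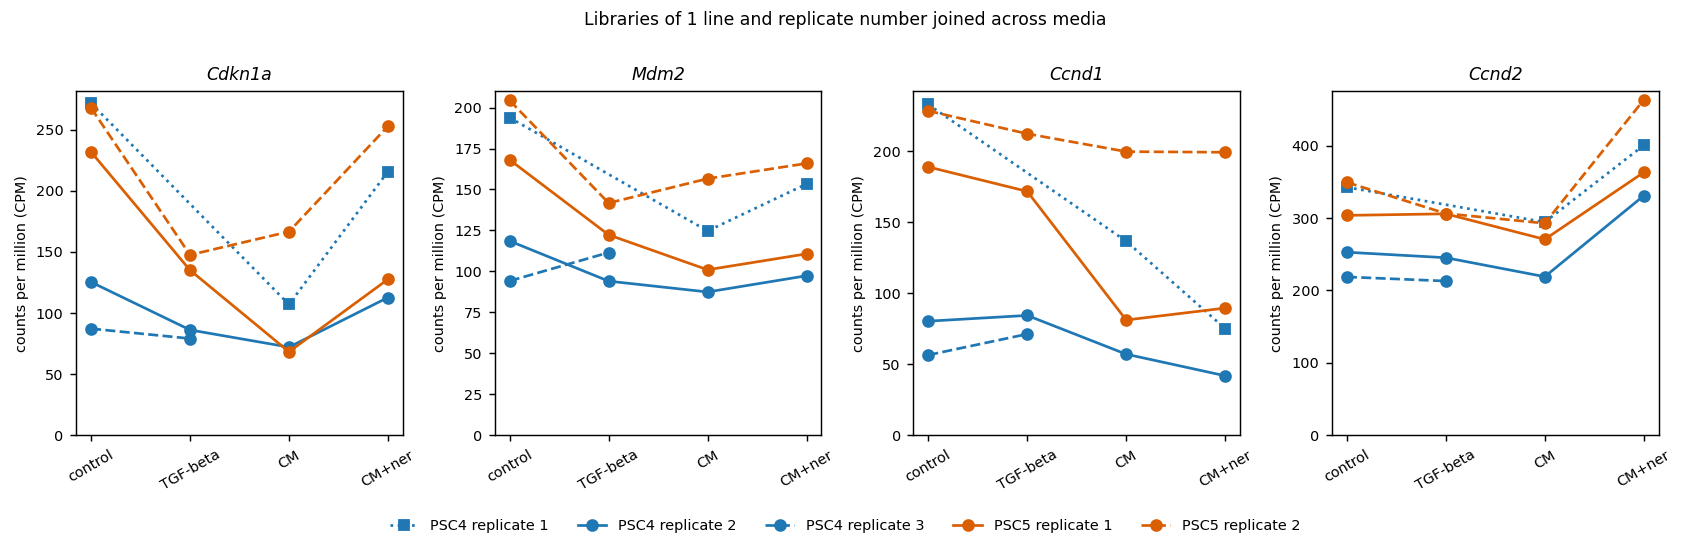
Level in CPM (axes from 0) of Cdkn1a, Mdm2, Ccnd1 and Ccnd2 by medium, with libraries of 1 line and replicate number joined (PSC4 blue, PSC5 orange, PSC4 replicate 1 as squares). Cdkn1a drops from control to CM and is higher again with neratinib in all 4 sets that have both media, by 0.60 to 1.01 log2 units for the second step, and Ccnd2 has the same second step (0.42 to 0.66).

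Trp53 (chr11:69580359-69591873, plus strand), the gene of p53, was lowest in TGF-beta and highest in CM with neratinib. TGF-beta libraries held 140 and 136 CPM in PSC4 and 184 and 226 CPM in PSC5. CM with neratinib held 307 and 177 CPM in PSC4 and 225 and 255 CPM in PSC5. The groups overlapped, and the highest value was PSC4 replicate 1. Trp53 rose by 0.51 between these media (SE 0.16, adjusted p = 0.0184), and by 0.30 without the 3 PSC4 replicate 1 libraries (adjusted p = 0.0117). The call on Trp53 was lost without CM+neratinib PSC4 replicate 1 alone (0.31, adjusted p = 0.0676), without either TGF-beta PSC4 library (0.45 and 0.44) and with the T8 libraries removed (0.33, adjusted p = 0.0874). It was also lost with 2 groups in the fit, and so under 5 of 19 alternatives. CM against TGF-beta gave 0.38 (SE 0.16, adjusted p = 0.0790), and 0.26 with the block (adjusted p = 0.0377). Against control, at 220, 159 and 171 CPM in PSC4 and 206 and 209 CPM in PSC5, the values were -0.21 for TGF-beta (adjusted p = 0.314), 0.18 for CM (adjusted p = 0.484) and 0.31 with neratinib (adjusted p = 0.117). The last of these was 0.24 with the block (adjusted p = 0.0334).

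Mdm2 (chr10:117688875-117710758, minus strand), the gene of the p53 ubiquitin ligase, was not called between any 2 media in the fit with cell line as labelled, over all 17 libraries. It was 194, 119 and 94.2 CPM in PSC4 controls 1 to 3 and 168 and 204 CPM in PSC5 controls, and in CM it was 125 and 87.5 CPM in PSC4 and 101 and 157 CPM in PSC5. Each CM library was below its matched control, by 0.38 to 0.73 log2 units, and the groups overlapped. CM against control gave -0.43 (SE 0.21, adjusted p = 0.200), and -0.48 with the block (adjusted p = 0.00802). TGF-beta gave -0.43 (SE 0.21, adjusted p = 0.121), and -0.28 with the block (adjusted p = 0.0442). CM with neratinib gave -0.26 (SE 0.21, adjusted p = 0.348), and -0.32 with the block (adjusted p = 0.0254). Its direction against CM was higher in all 4 pairs (0.08 to 0.30 log2 units), with a fitted value of 0.17 (adjusted p = 0.6254).

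The 2 lines differed in several of these genes, and how many depended on the PSC4 replicate 1 libraries. As labelled, Cdkn2c was lower in PSC5 than in PSC4 (log2 difference -0.45, SE 0.11, adjusted p = 0.0337) and Ccnd3 was higher (0.26, SE 0.06, adjusted p = 0.0253), with 6.97% of all genes called. When these 3 libraries were left out, 8 of the 10 genes were called, where 42.6% of 14049 genes were. Ccnd1 was then higher in PSC5 by 1.49 (SE 0.22), Cdkn1a by 0.89 (SE 0.20), Mdm2 by 0.56 (SE 0.13), Trp53 and Ccnd2 by 0.40, and Ccnd3 by 0.33. Cdkn2c (-0.61, SE 0.08) and Cdkn1b (-0.33, SE 0.06) were lower in PSC5. Cdkn2a (-0.04) and Cdkn2b (0.09), the genes that moved most clearly with the media, were not called between lines. Removing those libraries followed their profiles over all genes, these 10 included, so the second reading is a description of the remaining libraries.

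Whether a medium acted differently in the lines was tested with an interaction term. No gene was called for TGF-beta, CM or CM with neratinib against control or for neratinib against CM (0% in each), with edgeR. At an unadjusted p under 0.05 there were 601, 43, 260 and 237 genes of 13923, and none of the 10 was among them. Without the PSC4 replicate 1 libraries, 2 genes of 14049 were called for TGF-beta (0.0142%), neither of them among the 10, and none for the other 3 comparisons (0% each). The genes at an unadjusted p under 0.05 then numbered 1107, 222, 337 and 211. For TGF-beta these included Cdkn2b, with a difference of 0.43 between PSC5 and PSC4 (SE 0.13, adjusted p = 0.434), and Cdkn2c (-0.40, SE 0.17, adjusted p = 0.618). For CM they included Cdkn2b (0.40, SE 0.15, adjusted p = 1.00). The 2 conditioned medium codes, T6 and T8, go with replicate number and passage and cannot be told apart from these. Between them 3 genes were called in all (0.0226% of 13254), none of the 10, and 1278 had an unadjusted p under 0.05, again none of the 10. Without PSC4 replicate 1, where 3.57% of 13329 genes were called, 3 of the 10 were higher in T6: Cdkn1a by 1.14 (SE 0.09, adjusted p = 0.0104), Ccnd1 by 1.22 (SE 0.14, adjusted p = 0.0160) and Mdm2 by 0.61 (SE 0.07, adjusted p = 0.0150). That reading rests on PSC5 alone, the only line that then had both codes, with 1 library of each code per medium.

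Levels of some of these genes went together over the 17 libraries, which share lines, media and passages, so the correlations of log2 CPM are given as descriptions. Cdkn1a and Mdm2 had the highest (Pearson r 0.94, Spearman rho 0.90), and after means of each medium and line were removed r was 0.96. Cdkn2a and Cdkn2b followed over all libraries (r 0.91, rho 0.93), but with these means removed their r was 0.70, below that of other pairs such as Cdkn1a and Ccnd1 (0.92), Cdkn1b and Cdkn2c (0.91) and Ccnd1 and Ccnd2 (0.91). Cdkn1b and Cdkn2c had r 0.85, and Ccnd1 and Mdm2 had r 0.84. Trp53 itself went less closely with Cdkn1a (r 0.54) and with Mdm2 (r 0.52), and in the opposite direction to Cdkn1b (r -0.77). The means removed above took the lines as labelled, with the PSC4 replicate 1 libraries in PSC4. A difference between lines can therefore remain in the values of r after their removal. No correlation is given without these libraries.

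**Figure D4:**
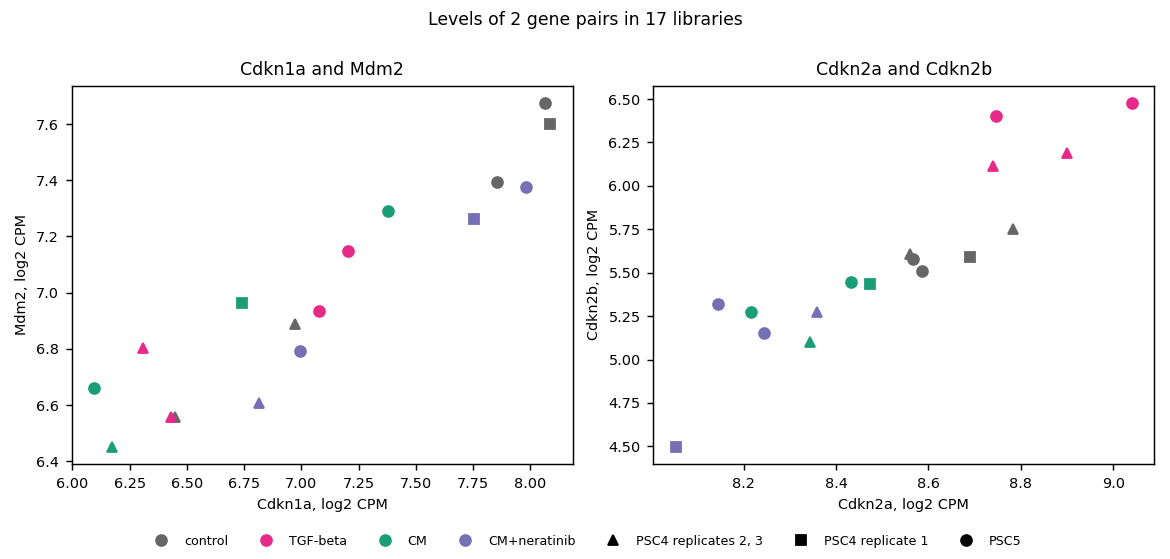
Levels (log2 CPM) of Mdm2 against Cdkn1a and of Cdkn2b against Cdkn2a, 1 point per library (17), coloured by medium, with triangles for PSC4 replicates 2 and 3, squares for PSC4 replicate 1 and circles for PSC5. Cdkn1a and Mdm2 lie along a common diagonal across media (r 0.94), and in the other panel the TGF-beta libraries stand at the upper right (r 0.91).

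Among 9771 genes with a mean of at least 10 CPM, those most like each called gene over the 17 libraries were Adam12 (r 0.97) and Nrep (0.96) for Cdkn2b, and Ankrd44 (0.95) and Nrep (0.94) for Cdkn2a. For Ccnd2 they were the ribosomal protein genes Rps21 (0.95) and Rpl27a (0.94), for Cdkn1b Laptm4a (0.96) and Gab1 (0.95), for Ccnd3 Mettl23 (0.93) and Ccm2 (0.92), and for Trp53 Cebpz (0.98) and Gtf2f1 (0.97). By Spearman rho the closest gene was the same for Ccnd2 only, Rps21, and another for the other 5.

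Genes of the surrounding pathway were read from lists written from general knowledge, with earlier results of these data known. In a list of 26 p53 target genes (without the 10), TGF-beta against control called 15 lower and 2 higher, beside 20.5% lower and 19.7% higher of all genes, with a median log2 fold change of -0.58 where that of all genes was -0.02. The 3 with the smallest adjusted p were Gadd45a, a stress gene that arrests the cell cycle (27.1 CPM in control and 177 in TGF-beta on average, log2 fold change 2.73, adjusted p = 8.88e-08), Btg2, an antiproliferative gene (-1.24, adjusted p = 9.25e-06), and Pmaip1, which encodes the cell death protein Noxa (2.46, adjusted p = 9.41e-06). Gadd45a and Pmaip1 are known to respond to stress pathways besides p53. What moved the targets that rose or those that fell was not tested.

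CM against control called 8 of the p53 targets lower and 1 higher, beside 7.14% lower and 7.05% higher of all genes (median -0.32, all genes -0.00037). Ercc5 (-0.66, adjusted p = 0.00277) and Polk (-0.77, adjusted p = 0.00498), both DNA repair genes, and Trp53inp1, a p53 cofactor gene (-1.16, adjusted p = 0.00498), had the smallest adjusted p. With the block, 14 were lower and 1 higher, beside 23.3% of all genes called either way, and without single libraries 4 to 10 of the 26 were called. CM with neratinib against control called 9 lower and 4 higher (median -0.25), beside 20.9% and 22.2% of all genes, with Btg2 (-1.22), Gadd45a (1.33) and Ddb2, a DNA damage recognition gene (-0.90), first. Against CM, neratinib called 2 higher and 3 lower (median 0.09), near the 20.5% of all genes called either way, with Sesn2, an antioxidant stress gene, at 62.4 CPM in CM and 129 CPM with neratinib (1.05, adjusted p = 0.000769), Btg2 (-0.64) and Sesn1 (-0.52). Without T6 libraries none of the 26 was called there, beside 187 genes in all.

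**Figure D5:**
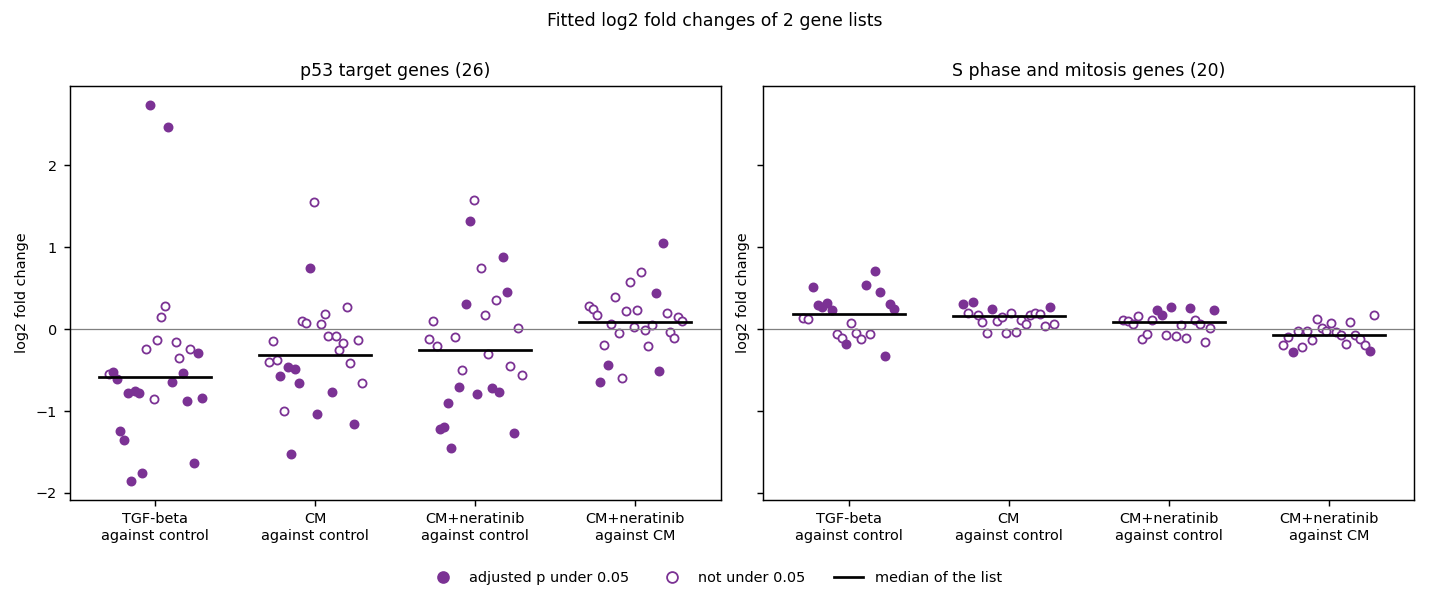
Fitted log2 fold changes (vertical axis) of 26 p53 target genes and 20 genes of S phase and mitosis in 4 comparisons, 1 point per gene, filled where the adjusted p was under 0.05, with the list median as a black line. In TGF-beta the p53 targets have a median of -0.58 with Gadd45a and Pmaip1 as the 2 filled points above 0, and the S phase and mitosis genes stay within a narrower range.

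Of 10 regulators of p53, TGF-beta called 5 lower and 2 higher (20.5% and 19.7% of all genes). These included Ppm1d, a phosphatase that dampens the p53 response (-0.55, adjusted p = 0.000105), Chek1 (-0.31, adjusted p = 0.000608) and Mdm4, the partner of MDM2 (-0.36, adjusted p = 0.00162). CM called 3 lower and 1 higher (7.14% and 7.05% of all genes), with Hipk2, a kinase of p53, at 104 CPM in control and 199 in CM (0.93, adjusted p = 0.000209), Rchy1 (-0.24) and Mdm4 (-0.24). Without single libraries only 1 to 2 of the 10 regulators were called with CM. CM with neratinib called 3 in each direction (20.9% lower and 22.2% higher of all genes), with Hipk2 (1.18), Trp53bp1 (-0.78) and Ppm1d (-0.45) first, and against CM also 3 in each direction (9.63% lower and 10.8% higher of all genes), with Trp53bp1 (-0.52), Atm (-0.27) and Ppm1d (-0.37) first. The count of regulators called against CM ran from 0 to 7 over the alternatives, and from 3 to 7 without single libraries.

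Of 20 other genes of the CDK and retinoblastoma machinery, TGF-beta called 5 higher and 1 lower (8 and 4 with the block), a share below the 40.2% of all genes called either way (50.9% with the block, where the list was 12 of 20). Ccna2, the gene of cyclin A2 (0.30, adjusted p = 0.000577), Ccne2, of cyclin E2 (0.32, adjusted p = 0.0124), and Cdkn2d, of the fourth INK4 inhibitor p19Ink4d (0.49, adjusted p = 0.0205), came first. CM called 2 higher, E2f2 (0.38, adjusted p = 0.0217) and E2f1 (0.19, adjusted p = 0.0336), and with the block 6 higher, beside 14.2% and 23.3% of all genes called either way. When single libraries were left out, 1 to 6 of these 20 genes were called with TGF-beta and 0 to 3 with CM. CM with neratinib called 5 higher and 4 lower, near the 43.1% of all genes, with E2f1 (0.42, adjusted p = 5.04e-05), Cdkn1c, the gene of p57 (2.23 CPM in control and 0.489 with neratinib, -2.19, adjusted p = 0.000618), and E2f3 (0.39, adjusted p = 0.000926) first. Neratinib against CM called 1 higher and 3 lower, near the 20.5% of all genes, with Ccne1, of cyclin E1 (-0.38, adjusted p = 0.00586), E2f1 (0.23, adjusted p = 0.0105) and Cdkn1c (-1.41, adjusted p = 0.0248) first.

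Of 20 genes of S phase and mitosis, TGF-beta called 10 higher and 2 lower (median 0.18), beside 19.7% higher and 20.5% lower of all genes, led by the mitotic kinase genes Plk1 (0.71, adjusted p = 2.45e-06) and Bub1 (0.51, adjusted p = 4.06e-05) and by Mki67 (0.54, adjusted p = 0.000545). CM called 4 higher (median 0.16), beside 7.05% of all genes, and 8 with the block, led by Bub1 (0.34), Top2a (0.27) and Cdk1 (0.25). Without single libraries 1 to 5 of these 20 genes were called with CM. CM with neratinib called 5 higher (median 0.08), close to the 22.2% of all genes, led by the replication genes Mcm2 (0.23), Mcm5 (0.27) and Tyms (0.24), and against CM 2 lower, near the 9.63% of all genes, Bub1 (-0.28) and Top2a (-0.27).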

How the data were processed

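RNA was sequenced from 17 libraries, and the deposited values are estimated counts (expected counts) per Ensembl gene, made by the authors with Salmon 1.4.0 on GRCm38 (mm10), per the submitters' processing notes. Filters on reads and the use of strand are not given in the sources used here. A gene on the other strand overlaps Cdkn1a, Ccnd1, Ccnd2 and Ccnd3 in GENCODE, and reads of such partners cannot be told apart without strand. Of the values above 0, 74.8% were not whole, and all were rounded, which moved a library total by at most 308 counts.

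From these counts, edgeR 4.0.16 under R 4.3.3 fitted the quasi-likelihood test with TMM factors after filterByExpr by group (minimum count 10, minimum total 15), with medium and cell line as terms over all 17 libraries. The p-values were adjusted by the Benjamini-Hochberg method over 13923 genes with a threshold of 0.05. Standard errors (SE) come from the log2 fold change and its F statistic. Marker sums were scaled to library totals without TMM, and 1 immune marker is not reported here by itself. Log2 CPM for correlations had a prior count of 2. Coordinates came from GENCODE on GRCm38. The fit was tested on simulated data for TGF-beta against control: of 200 changed genes among 13763, it recovered 45.5% at an absolute log2 fold change of 0.5, 86.6% at 1 and 98.5% at 2, with 8 false calls. The simulated libraries had no difference between lines and did not vary together by replicate number. These rates need not hold for the real libraries, which have both.

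The replicate number is also the passage of the line per the labels, and all 22 pairs of libraries with the same line and number but other media correlated above 0.1 after removal of group means (median r 0.30), so the numbers pair the libraries and a replicate block of line and number was fitted beside the cell line term. No 2 libraries of a group agreed within counting noise.

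Named are all 10 genes, for each list the 3 genes with the smallest adjusted p in a comparison described, and for each gene called in any comparison the 2 genes with the highest Pearson r with it at a mean of at least 10 CPM. The genes, lists and alternatives were chosen with earlier results of these data known. Alternatives were other scaling factors (upper-quartile, RLE), DESeq2 1.42.0, no count filter, the replicate block, group alone as a term, 2 groups only, PSC4 replicate 1 counted with PSC5 or removed, each medium code removed, and each library left out.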

Additional observations from a re-analysis of the deposited data

Results flagged for a closer look

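In CM, Cdkn2c in PSC4 replicate 2 (120 CPM) stood apart from the other 3 CM libraries, which lay between 83.2 and 89.3 CPM. The gap took 0.836 of the range of the group. This was looked for in 40 groups of 4 or 5 libraries, and chance sets apart about 1 in 20 groups drawn from 1 population. These groups hold 2 lines, so that rate need not apply. PSC4 replicates 2 and 3 held 107 to 132 CPM of Cdkn2c in control and TGF-beta, a range that includes the value set apart.

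Ccnd1 with TGF-beta went opposite ways in the lines when libraries of the same line and number were compared. Both PSC4 pairs were higher and both PSC5 pairs lower than control, and the medians differed by -0.32 log2 units (PSC5 minus PSC4). This difference was not tested in that form, and the interaction term for Ccnd1 over all libraries, which include the control library PSC4 replicate 1, gave 0.54 (SE 0.89) with an unadjusted p of 0.555. Without the PSC4 replicate 1 libraries the term was -0.31 (SE 0.61) with an unadjusted p of 0.629, of opposite sign. Neither p-value, from edgeR's quasi-likelihood test, passed the threshold.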

How the results depend on the processing

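Of 1150 alternative values for the 60 fold changes of single genes, 1001 kept direction and side of the threshold, 50 lost a call, 55 gained one and 44 changed sign, none of these with a call. Cdkn2b with TGF-beta, and Cdkn2a and Cdkn2b in CM or CM with neratinib against TGF-beta and in CM with neratinib against control, were called under every alternative run. So was Ccnd2 in CM with neratinib against TGF-beta. Where not named otherwise, the cause of a change was not tested.

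The number of the 10 genes called with TGF-beta against control (2) was 6 with the replicate block, 6 with PSC4 replicate 1 counted with PSC5, 5 with it removed and 1 to 4 without single libraries. For CM against control (1) it was 0 with RLE factors, 2 with DESeq2, 0 without a filter, 5 with the replicate block, 3 with 2 groups in the fit, 4 with PSC4 replicate 1 counted with PSC5, 2 with it removed, 0 without T6, 0 without T8 and 0 to 1 without single libraries. For CM with neratinib against control (4) it was 7 with the replicate block and 2 without T6, and against CM (1) it was 3 with the block, 0 with 2 groups, 2 with PSC4 replicate 1 counted with PSC5, 0 without T6 and 0 to 1 without single libraries. For CM against TGF-beta (2) it was 6 with the block and 4 with PSC4 replicate 1 counted with PSC5 or removed, and for CM with neratinib against TGF-beta (5) it was 3 with 2 groups, 3 without T8 and 3 to 5 without single libraries. Between lines (2) it was 8 with PSC4 replicate 1 counted with PSC5 or removed, and between T6 and T8 (0) it was 3 with it removed.

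Signs changed with the replicate block for Cdkn2c in CM against control (0.020) and, against TGF-beta, for Cdkn1b (0.031), Ccnd2 (-0.13) and Mdm2 (-0.20) in CM and for Mdm2 with neratinib (-0.034). With PSC4 replicate 1 removed they changed for Ccnd1 with TGF-beta (0.032), Cdkn2c in CM against control (0.00027) and, against TGF-beta, for Cdkn1b (0.0065), Ccnd2 (-0.10) and Mdm2 (-0.14) in CM and Mdm2 with neratinib (-0.018). With it counted with PSC5, CM against TGF-beta gave Cdkn1b 0.018, Ccnd2 -0.089 and Mdm2 -0.16. Without T8, Cdkn2c in CM against control was 0.039, and against TGF-beta Cdkn1a was 0.028 and Ccnd2 -0.069. Without T6, CM against TGF-beta gave Ccnd3 0.0073 and Mdm2 -0.036. Mdm2 there was -0.0043 with RLE factors and -0.0044 with DESeq2, and Cdkn2c with neratinib against TGF-beta was -0.029 with group alone.

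Without single libraries, the ranges that crossed 0 were -0.56 to 0.017 for Ccnd1 with TGF-beta, -0.12 to 0.062 for Cdkn2c in CM and -0.43 to 0.10 for Cdkn1a with neratinib, all against control. Against CM, neratinib gave -0.20 to 0.00069 for Cdkn1b, -0.66 to 0.0074 for Ccnd1 and -0.079 to 0.23 for Trp53. CM against TGF-beta gave -0.30 to 0.13 for Cdkn1a, -0.42 to 0.19 for Ccnd1, -0.084 to 0.078 for Ccnd2 and -0.11 to 0.12 for Mdm2, and neratinib against TGF-beta gave -0.10 to 0.12 for Cdkn2c.

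Over all genes, CM against control called 1976 genes and 3240 with the replicate block, 2986 with PSC4 replicate 1 counted with PSC5, 1079 without T6, 1035 without T8 and 801 to 1793 without single libraries. Neratinib against CM called 2850, and 4563 with the block, 602 with 2 groups, 187 without T6 and 1265 without T8. Upper-quartile factors moved the share of called genes that were higher from 49.7% to 37.5% for CM and from 51.4% to 41.1% for CM with neratinib against control.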
